A study of Homo sapiens with 9 samples.

Results

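The mitosis and spindle genes described here are 56 genes that condense, capture, align and separate the chromosomes, chosen by a list of their symbols, of the 19775 genes that could be measured. All 56 were measured, by 113 of the 54613 probe sets (groups of short probes on the array that are read together), and 31 of them had more than 1 probe set. RNA came from Rh30, a human cell line of fusion-positive rhabdomyosarcoma (FP-RMS), a childhood tumor with features of skeletal muscle, and every group carried the PAX3-FOXO1 fusion. The 3 groups were adherent cells, spheres and xenografts, with 3 arrays each. Per the methods, adherent cells grew as a monolayer in medium with 10% FBS and spheres were collected after 48 h in culture. The spheres grew in Neurobasal media containing 1X B27, bFGF at 80 ng/ml, EGF at 40 ng/ml and insulin at 50 µg/ml. For the xenografts the sources differ. The labels describe cells from either culture placed in Matrigel under the skin of the flank of SCID/beige mice, and the methods describe adherent cells injected into the gastrocnemius muscle for the arrays. All samples are of 1 cell line, spheres differ from adherent cells in medium as well as in shape, and SCID/beige hosts lack T and B cells but supply stroma and vessels. The methods call the samples biological triplicates, and p-values measure the spread between these arrays.

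Cells enter mitosis when cyclin B and its kinase CDK1 become active, an activity built up through G2 by PLK1, Aurora A and CDC25 phosphatases. Condensins then compact the chromosomes, kinetochores built on centromeres bind the microtubules of the spindle, and the checkpoint made by BUB and MAD proteins holds back CDC20 until every chromosome is attached. Most of these genes are transcribed in a wave in G2, later than the genes of DNA replication, so their RNA in a bulk sample rises and falls with the share of cells in G2 and mitosis. In such samples, fewer dividing cells and less of the RNA per cell cannot be told apart.

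The promoters of these genes are shown first because many share short elements. In the cell cycle field, the cell cycle genes homology region (CHR) is known as the binding site of the DREAM and MMB complexes, which keep G2 genes silent in resting cells and switch them on later, and the CCAAT box is known as the site of NF-Y. E2F sites are known from genes of the G1/S wave. RefSeq promoters (GRCh38.p14), from 250 bases before to 50 bases after the start of transcription, were found for 48 of the 56 genes. They were searched on both strands for TTTGAA or TTCGAA (CHR), CCAAT for the box of that name, and TTTGGCGC, TTTCGCGC or TTCCCGCC (E2F type). The motifs do not contain one another, although neighbouring matches can share bases. CHR letters were present in 36 of the 48 promoters (75%) and in 16.6% of all 27305 promoters of that length. CCAAT was present in 72.9% against 35.7% of all promoters, CHR and CCAAT together in 56.2% against 6.58%, and E2F-type letters in 14.6% against 4.30%. Closer to the start, from 60 bases before to 40 after, 30 of the 48 held CHR letters, against 5.25% of all promoters. This narrower window was not planned and was added when the promoters were searched. Among the 27 matched genes of DNA replication, CCAAT was also frequent, in 16 of their promoters (59.3%). E2F-type letters were in 16 of them too (59.3%) and CHR letters in 2 (7.41%), with 0 in the window near the start. These shares describe letters in a window and are not evidence of binding.

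The stretches below run from 150 bases before to 20 after the start, with CHR, CCAAT and E2F-type letters in capitals. MKI67, PLK1 and DLGAP5 show the CHR and CCAAT pair in genes that were lower in spheres, SPC25 holds all 3 elements, CCNB2 holds the pair in a gene that did not pass in any comparison on its brightest probe set, KIF2C holds none of them, and CDT1, a replication gene, holds an E2F-type element alone.
MKI67, chr10:128126404-128126573, minus strand: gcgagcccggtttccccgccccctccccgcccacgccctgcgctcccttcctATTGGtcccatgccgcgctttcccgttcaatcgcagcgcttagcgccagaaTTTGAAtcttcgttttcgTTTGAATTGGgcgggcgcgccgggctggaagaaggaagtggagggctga
PLK1, chr16:23678739-23678908, plus strand: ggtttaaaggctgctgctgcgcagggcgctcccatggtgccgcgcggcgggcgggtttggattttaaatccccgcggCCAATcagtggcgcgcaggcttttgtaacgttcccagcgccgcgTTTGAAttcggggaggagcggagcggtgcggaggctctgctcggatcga
DLGAP5, chr14:55191566-55191735, minus strand: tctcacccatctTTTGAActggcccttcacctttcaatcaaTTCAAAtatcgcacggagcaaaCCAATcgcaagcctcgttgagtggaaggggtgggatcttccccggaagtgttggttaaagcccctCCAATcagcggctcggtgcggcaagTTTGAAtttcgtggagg
SPC25, chr2:168890411-168890580, minus strand: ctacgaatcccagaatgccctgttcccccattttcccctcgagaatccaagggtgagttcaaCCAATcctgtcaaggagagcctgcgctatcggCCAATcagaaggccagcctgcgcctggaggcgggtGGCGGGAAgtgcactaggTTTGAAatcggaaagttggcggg
CCNB2, chr15:59104996-59105165, plus strand: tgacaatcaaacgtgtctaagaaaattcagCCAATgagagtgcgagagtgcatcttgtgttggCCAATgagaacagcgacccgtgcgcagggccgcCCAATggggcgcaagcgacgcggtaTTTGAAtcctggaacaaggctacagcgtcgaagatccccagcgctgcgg
KIF2C, chr1:44739687-44739856, plus strand: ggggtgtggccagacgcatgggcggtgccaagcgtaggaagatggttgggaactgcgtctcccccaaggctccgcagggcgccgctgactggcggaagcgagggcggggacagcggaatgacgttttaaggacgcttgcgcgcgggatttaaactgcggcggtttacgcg
CDT1, chr16:88803639-88803808, plus strand: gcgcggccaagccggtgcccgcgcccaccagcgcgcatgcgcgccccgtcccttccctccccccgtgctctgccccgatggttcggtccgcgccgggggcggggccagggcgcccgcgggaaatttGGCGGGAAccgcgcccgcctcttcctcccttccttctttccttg

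In MKI67 the CHR letters started 47 and 29 bases before the start, in PLK1 and in CCNB2 29 bases before it, and CCNB2 had CCAAT at 54, 87 and 120 bases. The share of promoters with CHR letters was 77.5% among the 40 matched genes that were lower in spheres and 62.5% among the 8 that did not pass, a gap of few genes that was not tested.

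In spheres the mitosis and spindle genes were lower almost throughout. Each gene was read on its brightest probe set unless another is named. Of 56 genes, 45 fell and 0 rose, where 16.3% of all genes were called lower (limma, adjusted p under 0.05 by Benjamini-Hochberg over all 54613 probe sets). No member was higher at an unadjusted limma p under 0.05, nor by the methods' t-test. The median gene was at 0.623 times its adherent level (median log2 change -0.68), beside -0.04 over all genes, and 12 genes fell at least 2-fold. In 51 genes every sphere array lay below every adherent array, which 26.6% of all genes did. These genes are brighter on the array than most, and among the 2722 genes within their middle range of brightness 31.1% were lower. On the 3 sphere arrays the median member lay 0.71, 0.61 and 0.69 below the adherent mean on the log2 scale, so no single array carried the difference. Leaving out 1 array at a time, 40 of the 45 kept their call whichever array was missing, and 5 did not. INCENP lost its call without adherent replicate 1, HMMR without adherent replicate 2 or 3 or sphere replicate 1 or 2, and TOP2A, CENPA and ECT2 as given with their values.

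Against adherent cells the xenografts were much closer. There 19 genes were lower and 0 higher by limma, where 14.3% of all genes were lower and 12.6% higher. Among the genes of like brightness 28.2% were lower, so the share of 33.9% was not far from that of equally bright genes. The median log2 change was -0.22 beside 0.08 over all genes, and in 29 genes every xenograft array lay below every adherent array, where 19.5% of all genes did. In 2 genes, CENPN and CDC25B, every xenograft array lay above them, where 24.4% of all genes did. None of the 19 reached 2-fold. At an unadjusted limma p under 0.05 there was 1 higher member, CENPN, and the methods' t-test called 2. The count of 19 fell to 9 without adherent replicate 2, to 10 under quantile normalization and to 8 by the methods' t-test after adjustment. It rose to 25 under median centring, to 26 with a variance trend and to 27 both among brighter probe sets and with the mean of a gene's probe sets. The 8 that kept their call whichever array was missing were FOXM1, CENPE, ANLN, KIF11, PLK4, PRC1, AURKA and KIF2C.

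Set against spheres, the xenografts had higher levels of 37 genes and a lower level of 1, where 25.7% of all genes were higher, and 28 of the 37 kept their call whichever array was missing. The median log2 change was 0.40, beside 0.13 over all genes and -0.03 over those of like brightness. Xenograft arrays all lay above sphere arrays for 44 of the 56, as they did for 32.3% of all genes. In 43 genes the group means ran in the order adherent, xenografts, spheres from high to low, an order found in 14.2% of all genes. The 3 comparisons share their groups and are not independent of one another. In all, 18 genes were lower in both spheres and xenografts than in adherent cells, 27 were lower in spheres and not called in xenografts, 1 was lower in xenografts alone and 10 passed against adherent cells in neither.

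**Figure D1:**
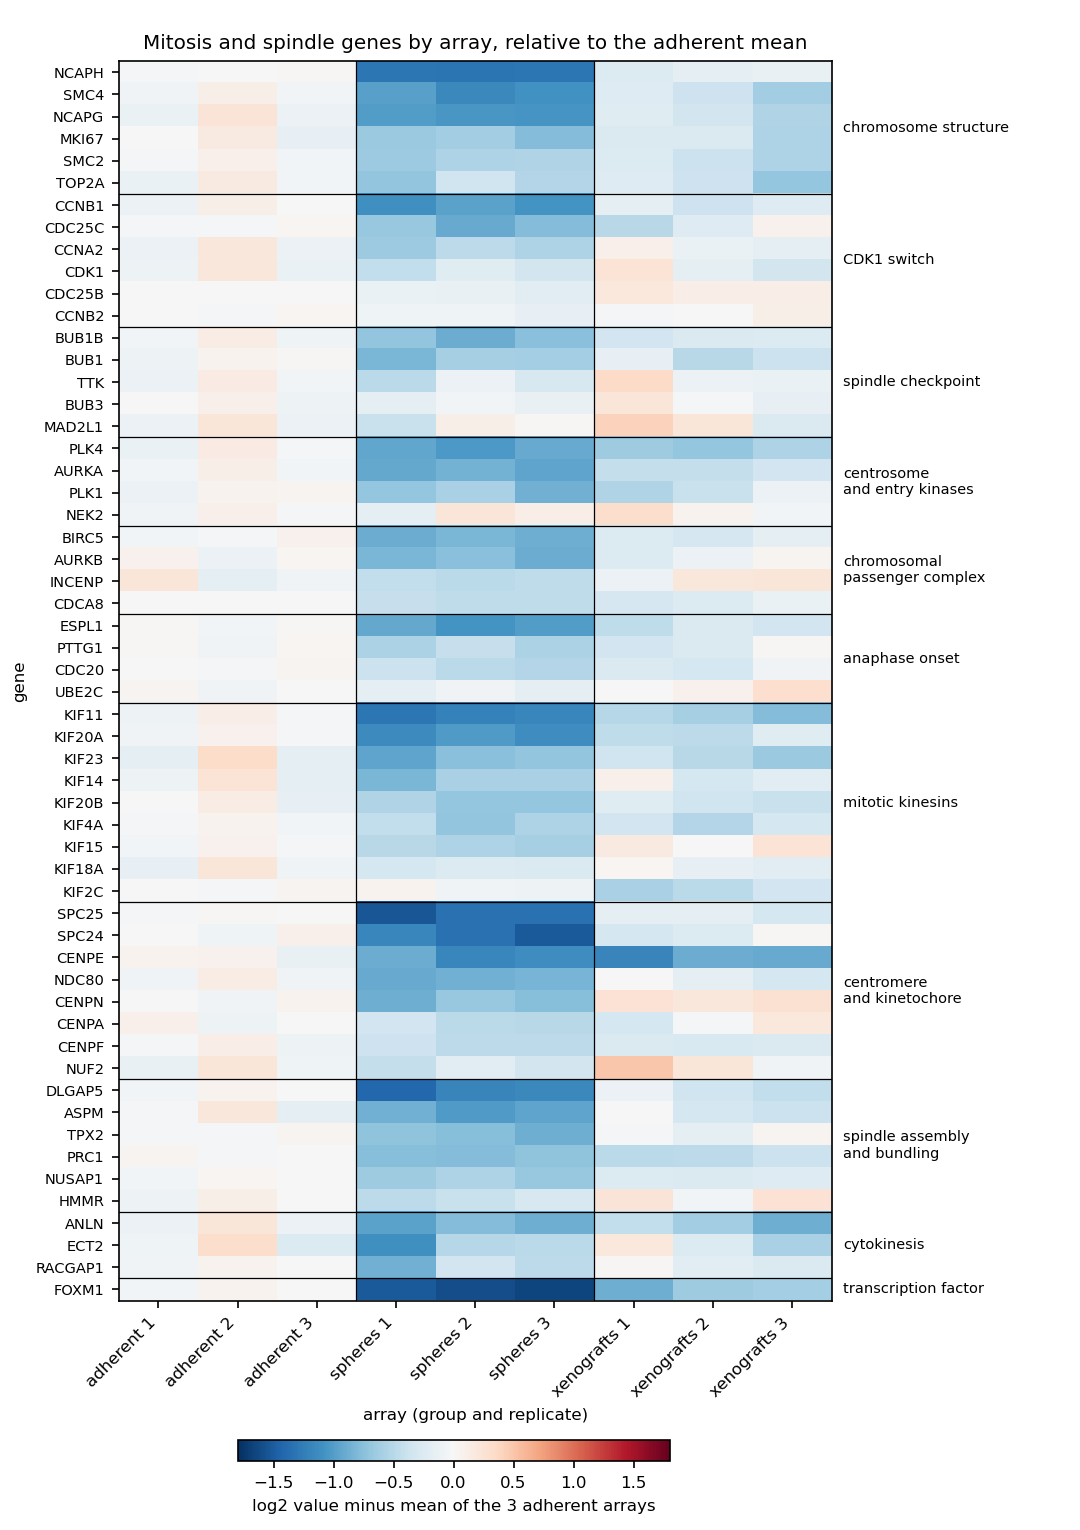
Log2 value of each of the 56 genes (rows, grouped by role) on each of the 9 arrays (columns), as the difference from the mean of the 3 adherent arrays (colour, blue lower and red higher). The 3 sphere columns are blue for nearly every gene, with medians of -0.71, -0.61 and -0.69, and the xenograft columns are paler, with medians of -0.23, -0.26 and -0.24.

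**Figure D2:**
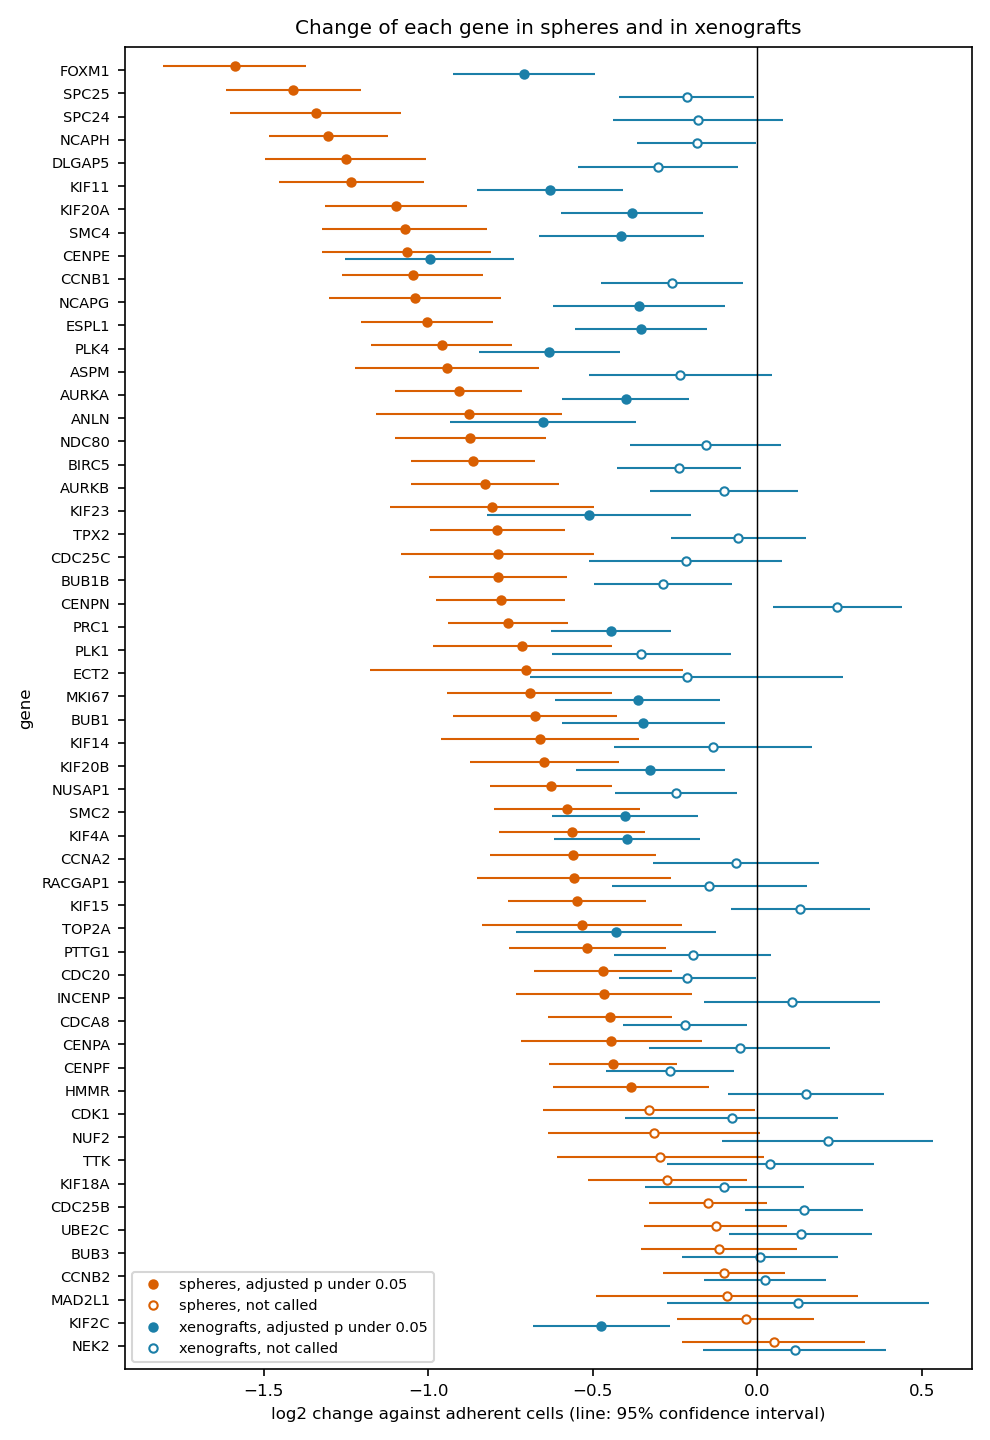
Log2 change against adherent cells of each gene in spheres and in xenografts, with 95% confidence intervals; filled points have an adjusted p under 0.05. In spheres 45 genes are filled and lie left of 0, and in xenografts 19 are.

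The transcription factor FOXM1, which drives many G2 genes together with B-MYB, had the largest fall of all members in spheres. Its log2 RMA values were 9.89, 10.001 and 9.93 on the adherent arrays, 8.43, 8.35 and 8.28 on the sphere arrays and 9.07, 9.31 and 9.33 on the xenograft arrays. The 3 groups did not overlap, with xenografts between the others. The level in spheres was 0.333 times adherent (log2 change -1.59, SE 0.10, n = 3 arrays per group, limma adjusted p = 7.16e-07), and in xenografts 0.612 times (-0.71, SE 0.10, limma adjusted p = 0.000408). Its only probe set is of a kind (a name ending in _x_at, as for those ending in _s_at) that can bind more than 1 transcript, so FOXM1 drops out when such probe sets are set aside.

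Genes of chromosome structure fell in 6 of 6 cases in spheres (median log2 change -0.87) and in 5 of 6 in xenografts (-0.38). Beside the counts by role, here and below, 16.3% of all genes were lower in spheres and 14.3% in xenografts. The share of all genes higher in xenografts than in spheres was 25.7%. NCAPH, a subunit of condensin I, read 8.79, 8.82 and 8.83 in adherent cells, 7.51, 7.50 and 7.52 in spheres and 8.57, 8.64 and 8.68 in xenografts. Its spheres were set apart from both other groups by far more than the spread, at 0.405 times adherent (log2 change -1.30, SE 0.08, limma adjusted p = 7.69e-07), while the xenografts did not pass (-0.18, adjusted p = 0.128). Set against spheres, NCAPH in xenografts was 2.17 times as high. The other condensin genes of the set fell by 0.58 for SMC2, 1.07 for SMC4 and 1.04 for NCAPG in spheres on the log2 scale. These 3 were lower in xenografts as well, with log2 changes from -0.41 to -0.36, but the calls hung on single arrays. That of NCAPG (limma adjusted p = 0.0499) was lost without any 1 adherent array and without xenograft replicate 2 or 3. SMC4 lost its call without adherent replicate 2 or 3 or xenograft replicate 3. SMC2 lost its call without adherent replicate 2 and on its other probe set (-0.16, adjusted p = 0.286). Under quantile normalization SMC2 and NCAPG did not pass.

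MKI67 encodes Ki-67, the coat protein of mitotic chromosomes that pathologists stain to count dividing cells. Its brightest probe set read 9.04, 9.21 and 8.91 in adherent cells, 8.39, 8.43 and 8.27 in spheres and 8.79, 8.79 and 8.49 in xenografts. All arrays of both other groups lay below the adherent arrays, and the level was 0.619 times adherent in spheres (log2 change -0.69, SE 0.11, limma adjusted p = 0.000750) and 0.777 times in xenografts (-0.36, SE 0.11, adjusted p = 0.0403). The size of the fall depended on the probe set, from -0.69 for the brightest to -1.72 for the next brightest in spheres, and all 4 passed. The xenograft call was lost under quantile normalization and without adherent replicate 1 or 2 or xenograft replicate 3. TOP2A, the topoisomerase that untangles sister chromatids, was lower in spheres (0.691 times, adjusted p = 0.0132) and in xenografts (0.742 times, adjusted p = 0.0439) on its brightest probe set. The first call was lost without adherent replicate 2 or sphere replicate 1, and the second without any 1 of 5 of the 6 arrays. Both were also lost by the methods' t-test after adjustment and with the mean of the TOP2A probe sets (-0.28, limma adjusted p = 0.174, and -0.34, adjusted p = 0.0942). On the brightest probe set TOP2A spheres and xenografts overlapped. The next probe set put xenografts 0.67 above spheres on the log2 scale (adjusted p = 0.0036) and not below adherent cells (-0.06, adjusted p = 0.811).

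The cyclin and kinase genes of the CDK1 switch were divided. CCNB1, cyclin B1, read 10.93, 11.14 and 11.05 in adherent cells, 9.93, 10.07 and 9.97 in spheres and 10.87, 10.66 and 10.80 in xenografts. The sphere level was 0.484 times adherent (log2 change -1.05, SE 0.10, limma adjusted p = 1.21e-05), and the xenograft level, below every adherent array but close to them, did not pass (-0.26, SE 0.10, adjusted p = 0.0789). CCNB2, cyclin B2, showed no such gap.

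On the brightest of the 3 CCNB2 probe sets the values were 11.50, 11.47 and 11.53 in adherent cells, 11.43, 11.42 and 11.35 in spheres and 11.46, 11.51 and 11.60 in xenografts. Sphere arrays lay just under adherent arrays and the change did not pass (log2 change -0.10, 95% confidence interval -0.29 to 0.08, adjusted p = 0.468), so on this probe set a fall of the size of CCNB1 lies outside the interval. A dim CCNB2 probe set, with a mean log2 value of 4.51, was lower in xenografts than in adherent cells (-0.80, adjusted p = 0.000733) and than in spheres (-0.72, adjusted p = 0.000671). With the mean of the 3 probe sets CCNB2 was lower in xenografts than in adherent cells as well (-0.30, adjusted p = 0.00744). CCNA2, cyclin A2, fell in spheres (0.678 times) and was higher in xenografts than in spheres (1.41 times), as was CDC25C, a phosphatase that activates CDK1 (0.579 and 1.49 times). Neither CDC25C call held on its dimmest probe set (mean log2 value 4.60), the 1 not named _s_at, where the changes were 0.04 and -0.05. CDC25B, a related phosphatase, did not pass in spheres (-0.15, adjusted p = 0.232) and was higher in xenografts than in spheres (0.29, adjusted p = 0.0153), though not without sphere replicate 3.

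CDK1 itself gave different calls by probe set. The brightest read 11.70, 12.00 and 11.67 in adherent cells, 11.35, 11.57 and 11.46 in spheres and 12.04, 11.64 and 11.46 in xenografts. Spheres lay below adherent cells but the xenografts spanned both, and neither passed (log2 change -0.33, adjusted p = 0.136, and -0.08, adjusted p = 0.732). Its other 3 probe sets were lower in spheres, by -0.45, -0.46 and -0.71, and in xenografts, by -0.29, -0.31 and -0.84, all with adjusted p under 0.05.

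**Figure D3:**
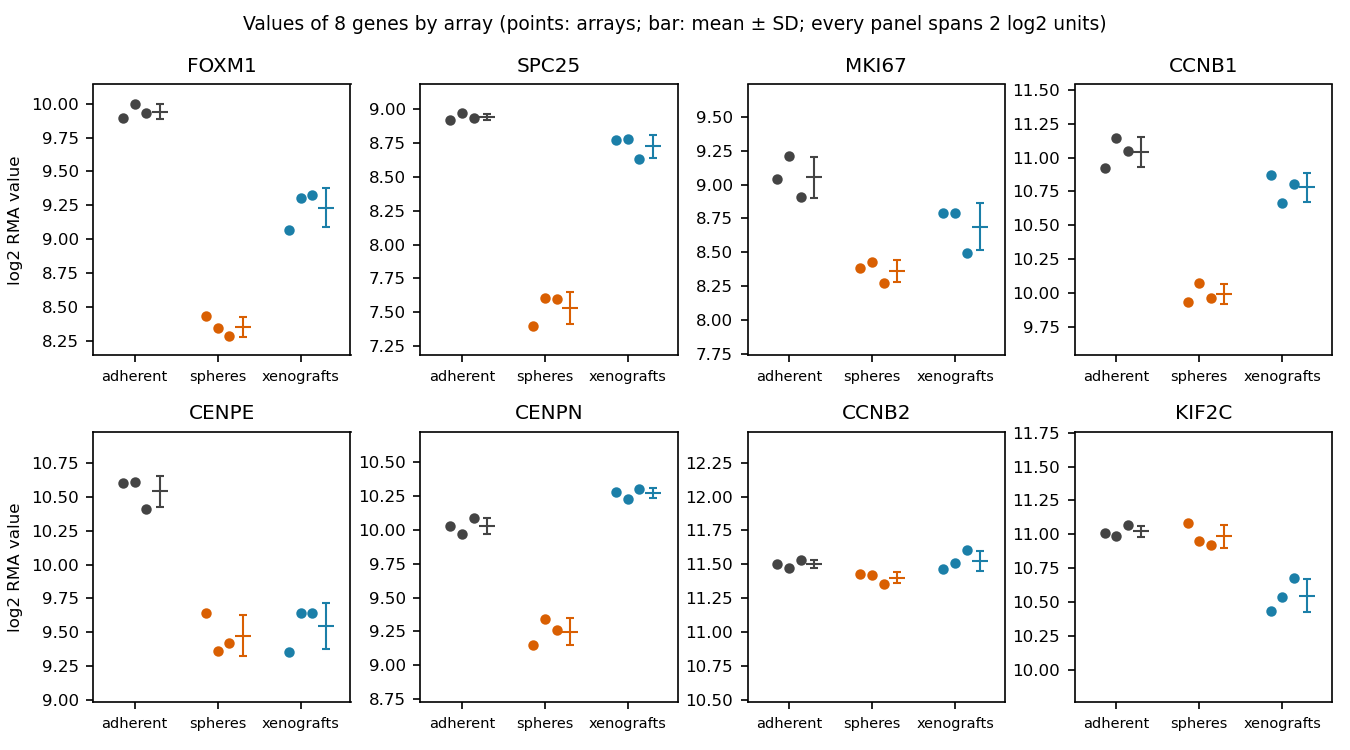
Log2 RMA values of 8 genes on each array (points, the brightest probe set of each gene), with the mean and SD of the 3 arrays of a group; every panel spans 2 log2 units. FOXM1, SPC25, MKI67 and CCNB1 are lowest in spheres, CENPE is low in both spheres and xenografts, CENPN is low in spheres and slightly above adherent cells in xenografts, CCNB2 hardly moves, and KIF2C is low in xenografts alone.

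The kinetochore genes held some of the largest changes, with 7 of 8 lower in spheres (median -0.83) and 6 of 8 higher in xenografts than in spheres (median 0.62). SPC25 and SPC24 encode the pair of proteins that anchors the NDC80 complex, the microtubule hook of the kinetochore, to the inner kinetochore. SPC25 read 8.92, 8.97 and 8.93 in adherent cells, 7.40, 7.60 and 7.60 in spheres and 8.77, 8.78 and 8.63 in xenografts. Spheres stood far below both other groups, at 0.376 times adherent (log2 change -1.41, SE 0.09, limma adjusted p = 1.14e-06), and xenografts were 2.29 times the sphere level (1.19, SE 0.09, adjusted p = 2.50e-06). SPC24 did the same, at 0.394 times adherent in spheres (adjusted p = 7.58e-06) and 2.24 times the sphere level in xenografts. NDC80 fell less in spheres (0.546 times) and NUF2, its partner in the complex, did not pass (-0.31, 95% confidence interval -0.63 to 0.01, adjusted p = 0.155). The subunits of 1 complex thus covered log2 changes from -1.41 to -0.31 in spheres.

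CENPE, the kinesin that carries chromosomes to the spindle equator, departed from this order. It read 10.60, 10.61 and 10.41 in adherent cells, 9.64, 9.36 and 9.42 in spheres and 9.35, 9.64 and 9.64 in xenografts. Spheres and xenografts overlapped (log2 difference 0.07, 95% confidence interval -0.19 to 0.33, adjusted p = 0.654), and both lay below adherent cells, at 0.478 times (adjusted p = 3.87e-05) and 0.502 times (log2 change -0.995, SE 0.12, limma adjusted p = 0.000137). CENPE was the member that fell furthest in xenografts.

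CENPN, a reader of centromeric nucleosomes, fell in spheres and differed by probe set in xenografts. Its brightest probe set read 10.03, 9.97 and 10.09 in adherent cells, 9.15, 9.34 and 9.26 in spheres and 10.28, 10.23 and 10.30 in xenografts, so that every xenograft array lay above every adherent array. It fell in spheres (0.582 times, adjusted p = 5.24e-05) and was 2.03 times the sphere level in xenografts (log2 change 1.02, SE 0.09, limma adjusted p = 5.53e-06). The difference between xenografts and adherent cells did not pass (0.24, adjusted p = 0.0728), although it did under quantile normalization, among brighter probe sets, with a variance trend and by the methods' t-test. The next 2 probe sets went the other way, with xenografts lower than adherent cells (log2 change -0.94, adjusted p = 9.42e-05, and -0.63, adjusted p = 0.00161), as did the mean of the CENPN probe sets (-0.27, adjusted p = 0.0149). On those 2 the falls in spheres were larger (-1.72 and -1.61), and xenografts were again above spheres.

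CENPA, the histone variant that marks centromeres, fell in spheres on its own probe set (0.735 times, adjusted p = 0.0207), a call lost without adherent replicate 1 or 3 or sphere replicate 2 or 3. A brighter probe set is annotated to CENPA and SLC35F6 and was not used for either. It read 10.43, 10.41 and 10.44 in adherent cells, 9.35, 9.44 and 9.33 in spheres and 10.43, 10.38 and 10.47 in xenografts. There the spheres were at 0.483 times adherent (log2 change -1.05, SE 0.08, limma adjusted p = 3.65e-06), and xenografts overlapped adherent cells. CENPF, a large kinetochore protein of G2 cells, fell in spheres (0.738 times, adjusted p = 0.00293) and did not pass in xenografts (-0.27, adjusted p = 0.0515). The xenograft change did pass among brighter probe sets, under median centring, with a variance trend and with the mean of the CENPF probe sets (-0.42, adjusted p = 0.00328). Its next probe set put xenografts level with adherent cells (-0.10, adjusted p = 0.690) and the dimmest, at a mean log2 value of 3.89, put them lower (-0.90, adjusted p = 5.31e-05).

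Among the kinases of mitotic entry and the centrosome, 3 of 4 fell in spheres. AURKA, Aurora A, which matures centrosomes and helps to activate PLK1, read 12.16, 12.30 and 12.15 in adherent cells, 11.28, 11.36 and 11.25 in spheres and 11.77, 11.78 and 11.86 in xenografts. The groups did not overlap, with spheres at 0.533 times adherent (log2 change -0.91, SE 0.09, limma adjusted p = 1.55e-05) and xenografts at 0.758 times (-0.40, SE 0.09, adjusted p = 0.00706). On the 1 AURKA probe set not named _s_at the xenograft change did not pass (-0.24, adjusted p = 0.113). PLK1, which acts from mitotic entry to cytokinesis, was at 0.610 times adherent in spheres (log2 change -0.71, SE 0.12, adjusted p = 0.00105), with an unresolved difference in xenografts (-0.35, adjusted p = 0.0612). PLK4, the kinase that starts centriole duplication, fell in spheres (0.515 times, adjusted p = 2.21e-05) and in xenografts (0.645 times, adjusted p = 0.000817). NEK2, which separates centrosomes, was the only member with a positive sphere estimate on its brightest probe set, and it did not pass (0.05, 95% confidence interval -0.23 to 0.33, adjusted p = 0.847). The other NEK2 probe set was lower in xenografts than in adherent cells, and it also passed in xenografts against spheres.

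The 4 genes of the chromosomal passenger complex, which corrects faulty attachments, all fell in spheres. None passed in xenografts against adherent cells on its brightest probe set, but other processing changed this. BIRC5 and CDCA8 were lower in xenografts among brighter probe sets, under median centring and with a variance trend. AURKB was lower there with the mean of its probe sets (-0.37, limma adjusted p = 0.0456). AURKB, the Aurora B kinase of the complex, read 9.23, 9.05 and 9.19 in adherent cells, 8.33, 8.40 and 8.26 in spheres and 8.91, 9.05 and 9.20 in xenografts. Xenografts overlapped adherent cells and lay above all spheres, which were at 0.564 times adherent (log2 change -0.83, SE 0.10, limma adjusted p = 9.16e-05). With a dim second probe set averaged in, the sphere call of AURKB was lost (-0.32, adjusted p = 0.0738) and xenografts no longer lay above spheres (-0.04, adjusted p = 0.779). BIRC5, survivin, which places the complex at centromeres, was at 0.549 times (-0.86, SE 0.09, adjusted p = 1.92e-05), and INCENP, its scaffold, and CDCA8, borealin, were at 0.724 and 0.734 times. The first 3 were higher in xenografts than in spheres, by 1.49 to 1.65 times, and CDCA8 did not pass (0.23, adjusted p = 0.0556).

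Of the 5 spindle checkpoint genes 2 fell in spheres, the smallest share of any role. BUB1, the kinase that recruits checkpoint proteins to kinetochores, read 9.43, 9.59 and 9.55 in adherent cells, 8.70, 8.93 and 8.90 in spheres and 9.38, 9.02 and 9.13 in xenografts. Both other groups lay below adherent cells, at 0.626 times (log2 change -0.68, SE 0.11, limma adjusted p = 0.000826) and 0.787 times (adjusted p = 0.0473, lost without any 1 of 5 of the 6 arrays). BUB1B, which encodes BUBR1, an inhibitor of CDC20, fell in spheres as well (0.579 times).

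The other 3 checkpoint genes did not pass in any comparison on their brightest probe sets. For BUB3 and MAD2L1, both parts of the complex that holds CDC20, and TTK, the kinase MPS1 at the top of the pathway, the sphere changes were -0.12, -0.09 and -0.29. Their confidence intervals reached down to -0.35, -0.49 and -0.61. TTK had only 1 probe set, while BUB3 and MAD2L1 each had others that passed. For BUB3 a probe set with a mean log2 value of 10.28 was lower in xenografts than in adherent cells (-0.40, adjusted p = 0.0215) and than in spheres (-0.58, adjusted p = 0.00133), and the mean of the BUB3 probe sets was lower than in spheres (-0.22, adjusted p = 0.0373). For MAD2L1 the next brightest probe set did fall in spheres (-0.37, adjusted p = 0.0228) and was higher in xenografts than in spheres (0.46, adjusted p = 0.0054).

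At the onset of anaphase, CDC20, the activator of the ubiquitin ligase APC/C, fell modestly. It read 10.64, 10.61 and 10.69 in adherent cells, 10.26, 10.15 and 10.12 in spheres and 10.39, 10.34 and 10.58 in xenografts. Spheres were below all adherent arrays at 0.722 times (log2 change -0.47, SE 0.10, limma adjusted p = 0.00297), and xenografts did not pass (-0.21, adjusted p = 0.130). ESPL1, separase, the protease that cuts cohesin, fell to 0.499 times in spheres and 0.782 times in xenografts. The xenograft call was lost without adherent replicate 1 or 3, under quantile normalization and by the methods' t-test after adjustment. PTTG1, securin, the inhibitor of separase, fell in spheres to 0.699 times, on a single probe set of the _x_at kind. UBE2C, the ubiquitin-conjugating enzyme of the APC/C, did not pass in any comparison, with -0.13 in spheres. Its xenograft arrays all lay above its sphere arrays (0.26, limma adjusted p = 0.0580). That difference passed among brighter probe sets, with a variance trend and without xenograft replicate 1.

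Of the 9 mitotic kinesins 7 fell in spheres and 6 in xenografts, where 16.3% and 14.3% of all genes were lower. Among genes of like brightness 31.1% and 28.2% were lower. The xenograft calls of KIF11 and KIF2C held whichever array was missing. Those of KIF4A, KIF20A, KIF20B and KIF23 did not, and were also lost under quantile normalization and by the methods' t-test after adjustment. KIF11, the Eg5 motor that pushes spindle poles apart and the target of several antimitotic compounds, read 9.79, 9.99 and 9.84 in adherent cells, 8.57, 8.66 and 8.69 in spheres and 9.36, 9.28 and 9.10 in xenografts. The 3 groups did not overlap, with spheres at 0.425 times adherent (log2 change -1.23, SE 0.10, limma adjusted p = 4.32e-06) and xenografts at 0.646 times (-0.63, SE 0.10, adjusted p = 0.00102). KIF20A, a motor of the central spindle, stood at 0.467 times in spheres and 0.769 times in xenografts. Its xenograft call was lost without adherent replicate 2 or 3 or xenograft replicate 2. KIF23, which with RACGAP1 forms centralspindlin, stood at 0.572 and 0.701 times. Both KIF23 values rest on a probe set open to cross-binding, and on its other one neither change passed (0.19, adjusted p = 0.609, in spheres and 0.01 in xenografts). With the mean of both probe sets the calls were lost too (-0.31, adjusted p = 0.107, and -0.25, adjusted p = 0.169), and the xenograft call was also lost without adherent replicate 2 or xenograft replicate 3.

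KIF2C ran against the other members. This kinesin, MCAK, takes microtubules apart at centromeres. It read 11.01, 10.99 and 11.07 in adherent cells, 11.08, 10.95 and 10.92 in spheres and 10.43, 10.53 and 10.67 in xenografts. Spheres overlapped adherent cells (log2 change -0.04, 95% confidence interval -0.24 to 0.17, adjusted p = 0.855), and xenografts lay below both, at 0.720 times adherent (-0.47, SE 0.10, limma adjusted p = 0.00408) and 0.738 times the sphere level (-0.44, SE 0.10, adjusted p = 0.00354). On the brightest probe sets it was the only member lower in xenografts than in spheres, although with the mean of probe sets BUB3, CCNB2 and SMC4 were lower too, and both of its probe sets passed in that direction (-0.44 and -0.36). KIF15, a motor that can stand in for KIF11, was lower in spheres (0.684 times) and higher in xenografts than in spheres (1.60 times), and KIF18A, which damps chromosome movement, did not pass in any comparison.

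All 6 genes of spindle assembly and bundling fell in spheres and were higher in xenografts than in spheres on their brightest probe sets. The second of these calls was lost with the mean of probe sets for ASPM, a spindle pole protein (0.31, adjusted p = 0.0924), and NUSAP1, which binds spindle microtubules (0.15, adjusted p = 0.0776). On the ASPM probe set left without _s_at ones it turned to -0.18 (adjusted p = 0.579). DLGAP5, HURP, which stabilises microtubules near chromosomes, read 10.29, 10.40 and 10.33 in adherent cells, 8.93, 9.15 and 9.18 in spheres and 10.23, 9.99 and 9.89 in xenografts. Spheres lay far below, at 0.420 times adherent (log2 change -1.25, SE 0.11, limma adjusted p = 8.38e-06), and xenografts were 1.93 times the sphere level (0.95, SE 0.11, adjusted p = 4.85e-05). TPX2, which activates Aurora A on the spindle, was at 0.578 times adherent in spheres and did not pass in xenografts (-0.06, 95% confidence interval -0.26 to 0.15). PRC1, which bundles the central spindle, was the 1 gene of these 6 that passed in xenografts against adherent cells (0.735 times, adjusted p = 0.00270), after 0.592 times in spheres. With other processing more of the 6 passed. NUSAP1 and DLGAP5 were lower in xenografts among brighter probe sets, with a variance trend and with the mean of probe sets. With that mean ASPM was lower as well (-0.47, limma adjusted p = 0.0310).

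The 3 genes of cytokinesis fell in spheres. ANLN, anillin, a scaffold of the contractile ring, was at 0.545 times adherent in spheres (adjusted p = 0.000325). In xenografts it was at 0.637 times (log2 change -0.65, SE 0.13, limma adjusted p = 0.00379), with no resolved difference between the 2 (0.22, adjusted p = 0.185). ECT2, which activates RhoA at the cell equator, varied most between arrays, with 7.77, 8.35 and 8.38 in spheres. Its call in spheres (0.615 times, adjusted p = 0.0326) was lost without adherent replicate 1 or 2 or without sphere replicate 1, by the methods' t-test, and on its dimmest probe set (-0.16, adjusted p = 0.450).

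**Figure D4:**
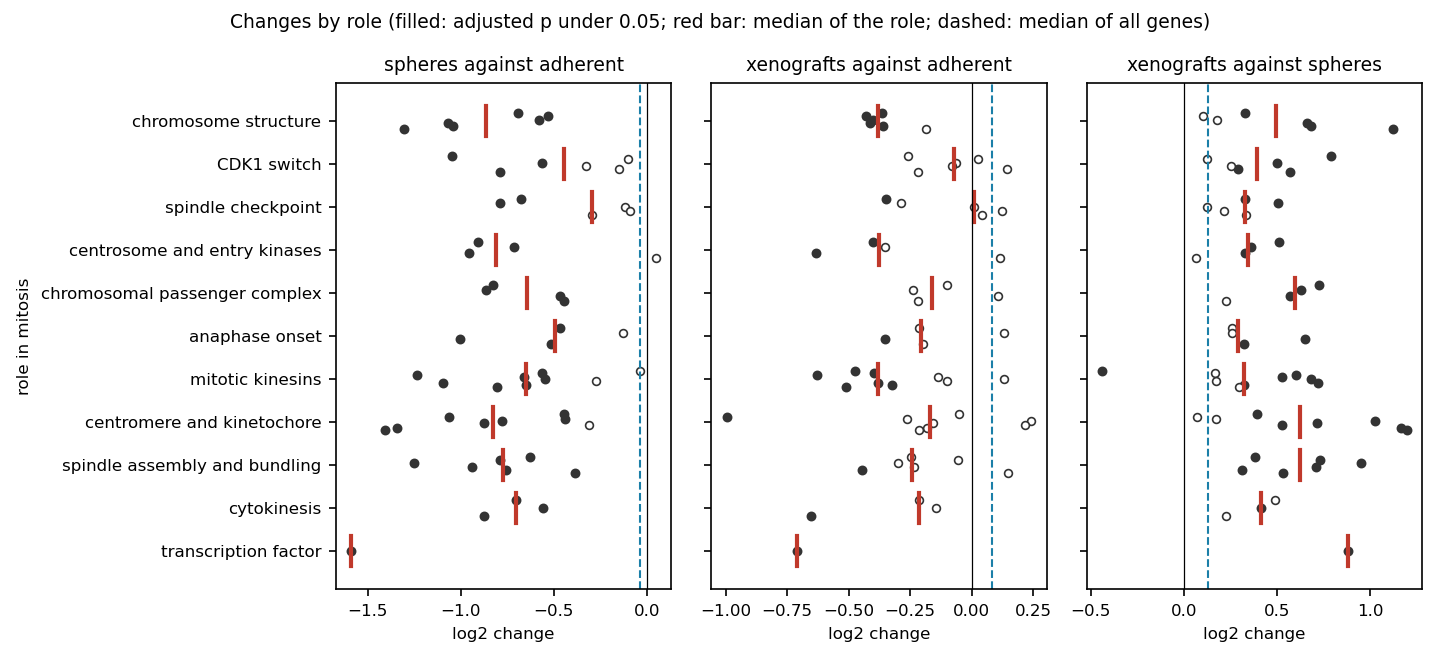
Log2 change of each gene (points, filled where the adjusted p is under 0.05) by role in the 3 comparisons, with the median of the role (red bar), 0 (solid line) and the median of all genes (dashed line). In spheres the role medians run from -1.59 for the transcription factor to -0.29 for the spindle checkpoint, and in xenografts against spheres 1 point, KIF2C, lies left of 0 at -0.44.

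Probe sets of 1 gene did not always move together, so all 113 were set side by side. In spheres 77 of them were lower and 1 higher. Of the 84 with a mean log2 value of 7 or more, 68 were lower (median -0.72), and of the 29 dimmer ones 9 were lower (median -0.16). The 1 higher probe set was the dimmest of the 3 of SMC4, at 6.90, 7.04 and 6.78 in adherent cells, 7.19, 7.88 and 7.86 in spheres and 5.90, 5.96 and 5.58 in xenografts. It opposed the other 2 SMC4 probe sets in spheres (log2 change 0.74 against -1.07 and -0.75). In xenografts against spheres 60 probe sets were higher and 9 lower, and 6 of the 9 were among the dim ones. TOP2A, AURKB and SMC4 had calls in both directions there, the lower ones on probe sets with mean log2 values of 4.22, 5.07 and 6.79.

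**Figure D5:**
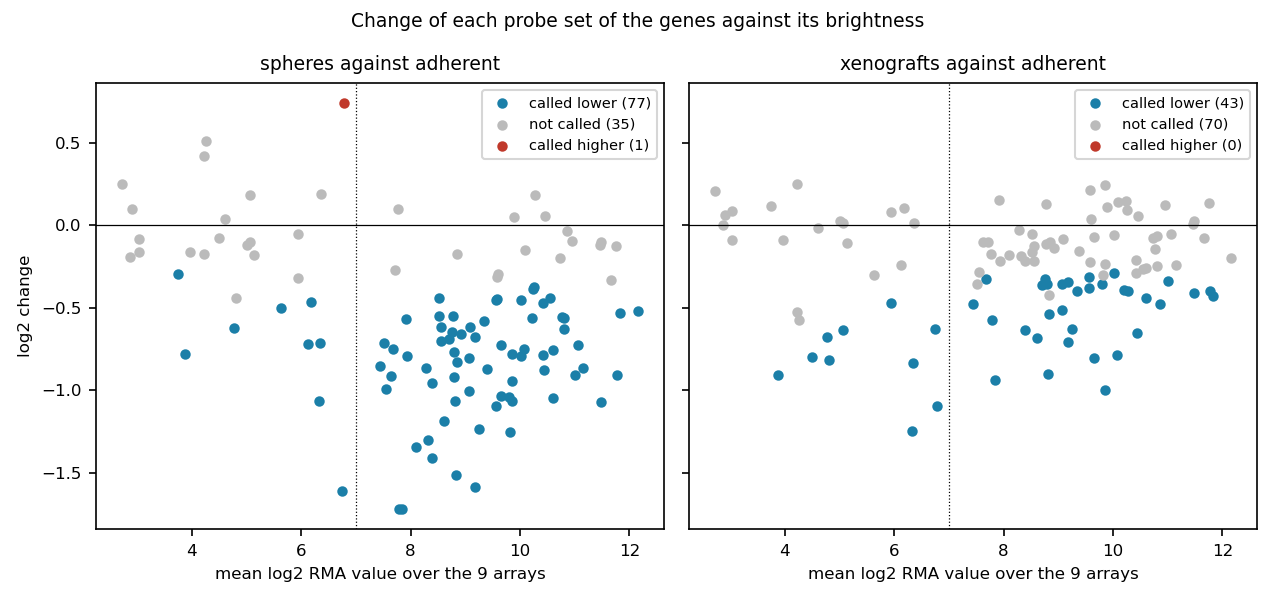
Log2 change of each of the 113 probe sets (points) against its mean log2 value over the 9 arrays, in spheres and in xenografts against adherent cells; the dotted line marks a log2 value of 7. In spheres the 77 probe sets called lower lie mostly to the right of the line, and the 1 called higher belongs to SMC4.

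Other genes of the same machinery, from lists that leave out the 56, changed in the same direction in spheres. Over all genes 16.3% were lower in spheres and 13.5% higher. Of 30 measured subunits of the inner and outer kinetochore 24 were lower and 0 higher (median -0.71), led by CENPU, a subunit of the inner kinetochore, at 0.343 times and KNL1, the platform of the checkpoint, at 0.389 times. Of 22 other spindle and centrosome factors 18 were lower and 1 higher (median -0.70), led by CEP55, needed for the final cut between daughter cells, at 0.406 times and KIFC1, a minus-end kinesin, at 0.423 times. The higher one was BORA, a cofactor of Aurora A, at 1.32 times. All 4 other condensin subunits fell, with NCAPD3 at 0.488 times. Of 23 other regulators of G2 and mitosis 15 were lower and 1 higher (median -0.72), among them CDCA3 at 0.405 times and MYBL2, which encodes B-MYB, at 0.442 times.

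Another 3 lists were more mixed. Beside them, 16.3% of all genes were lower in spheres and 13.5% higher. Among genes in the middle brightness range of the 56, 31.1% were lower. Of 16 measured APC/C subunits and regulators 7 were lower and 1, ANAPC16 (1.77 times), higher in spheres (median -0.24). Of 14 genes of the gamma-tubulin ring and augmin, which start new microtubules, 6 were lower and 1 higher (median -0.27), with TUBG1, gamma-tubulin, at 0.391 times. Of 14 cohesin genes 8 were lower and 2 higher (median -0.48), with SGO1, shugoshin, the protector of centromeric cohesion, at 0.557 times.

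In xenografts against adherent cells these lists were split, where 14.3% of all genes were lower and 12.6% higher. The kinetochore list had 7 of 30 lower and 4 higher, from KNL1 at 0.596 times to CENPM at 1.58 times. The spindle and centrosome list had 6 of 22 lower and 1 higher, TROAP, at 1.67 times. The condensin list had 3 of 4 lower, with NCAPD2 at 0.489 times. Its level in spheres was 0.616 times, and 0 of the 4 were called lower in xenografts than in spheres. The cohesin list had 2 of 14 lower, the gamma-tubulin ring and augmin list 1 of 14 lower, and the APC/C list 1 of 16 lower and 2 higher. Against spheres, 24 of 30 kinetochore genes and 15 of 22 spindle genes were higher in xenografts, beside 25.7% of all genes.

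Beside the mitosis genes, the 30 genes of DNA replication fell further in spheres and came closer to adherent levels in xenografts. In spheres 29 were lower (median log2 change -1.19), where 16.3% of all genes were. In xenografts 6 were lower than in adherent cells (-0.13), a share of 20% beside 14.3% of all genes. In xenografts against spheres 29 were higher (median 1.05, beside 0.40 for the mitosis genes), where 25.7% of all genes were. The difference between the 2 lists was not tested.

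Some features of the arrays moved with the groups. The 3′ minus 5′ signal of ACTB, which grows as RNA breaks down, was 3.20 ± 0.09 in spheres and 2.39 ± 0.30 in adherent cells on the log2 scale (SD, n = 3; two-sided exact permutation p = 0.1, the smallest that 3 against 3 arrays allow). In xenografts it was 2.48 ± 0.23 (two-sided exact permutation p = 0.8 against adherent cells), and that of GAPDH was 0.62, 0.54 and 0.53 in spheres, adherent cells and xenografts. The part of RNA quality in the sphere result was not tested. Replicates correlated at 0.990 to 0.998 over all probe sets.

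Of 8 fibroblast markers 5 were higher and 1 lower in xenografts than in adherent cells, where 12.6% of all genes were higher, led by LUM at 7.05 times. The summed linear level of this list ran from 1778 to 2896 there, beside 1425 to 1529 in adherent cells and 1587 to 1883 in spheres. Of 10 markers of mature muscle fibres 4 were higher and 1 lower in xenografts, with MYH4, a fast myosin, at 5.28 times and summed levels of 489 to 659 beside 497 to 551. The endothelial list had 1 of 7 higher (summed level 165 to 211, beside 155 to 165 in adherent cells), the leukocyte list 1 of 7 (161 to 189, beside 128 to 146) and the blood list 1 of 2 (110 to 117, beside 86.3 to 100.4). For the endothelial and leukocyte lists 1 of 7 is near the share of all genes. The part of these cell types in the xenograft results was not tested. The myogenic markers of the tumor were present in every group, with summed levels from 7121 to 9402, and MYOG, the muscle factor of this tumor type, was at 0.531 times adherent in spheres.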

How the data were processed

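RNA from Rh30 cells was hybridised to Affymetrix U133 Plus 2.0 arrays. The deposited values are log2 values that the authors made by RMA over all arrays (background correction, quantile normalization and a summary per probe set); they are not centred on the adherent cells. The RMA software version is not given in the sources used here. The number of arrays limits the precision.

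After 62 control probe sets were set aside, a linear model with a mean for each group was fitted to the other 54613 on all 9 arrays (limma 3.58.1, R 4.3.3, functions lmFit and eBayes), which leaves 6 residual degrees of freedom. P-values were adjusted by Benjamini-Hochberg over all of them and called under 0.05. The platform annotation gave the symbols, updated by Entrez ID against RefSeq: 41091 probe sets had 1 symbol, 1801 several and 11721 none. A gene stands for its brightest probe set with 1 symbol. The method was tested on simulated data.

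The 56 members and the other gene lists were chosen with earlier results of these data known. Full values are given for 12 anchor genes, for the 6 largest called changes per comparison and for calls against the median direction, and of other lists the 3 largest called changes and the largest opposite one at most. The alternatives were median centring or quantile normalization, brighter probe sets only, models of just the compared groups, the replicate number as a block, array weights, a robust fit with a variance trend, the methods' t-test, a 2-fold threshold, leaving out each array or all _x_at and _s_at probe sets, and averaging a gene's probe sets. Promoter letters came from RefSeq (GRCh38.p14).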

Additional observations from a re-analysis of the deposited data

How the results depend on the processing

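In spheres against adherent cells, the count of 45 lower members stayed between 33 and 47 under the alternatives other than the 2-fold threshold, which left 12; the 33 are of 44 members that keep a probe set without _x_at and _s_at ones. In xenografts against spheres the 37 higher members ran from 28 to 43, with 4 past 2-fold, and the 1 lower member became 4 with the mean of probe sets and 0 past 2-fold. The 19 lower members of xenografts against adherent cells were the least stable: 10 under quantile normalization, 8 by the methods' t-test after Benjamini-Hochberg, 0 past 2-fold, 9 to 20 when 1 array was left out, and up to 27 among brighter probe sets and with the mean of probe sets. In that comparison 0 higher members became 1 (CENPN) among brighter probe sets, under quantile normalization and with a variance trend, and 2 (CENPN and CDC25B) by the methods' t-test before and after adjustment. The cause was not tested.

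With the replicate block the counts were 45, 17 and 35. Same-numbered arrays of different groups had correlations of their deviations from -0.177 to 0.183, and arrays with other numbers from -0.206 to 0.277. The labels do not say whether the numbers pair the arrays, and with 3 arrays per group these values cannot settle it.

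Of the log2 changes of all 56 genes in the 3 comparisons, 12 changed sign under an alternative with a call in the main fit or in the alternative. Changes of sign without a call in either are not among them. Without _x_at and _s_at probe sets these were CDC25C (0.0352) and KIF23 (0.191) in spheres against adherent cells, CENPN (-0.937) and KIF23 (0.0117) in xenografts against adherent cells, and ASPM (-0.180) and CDC25C (-0.053) in xenografts against spheres. With the mean of probe sets they were CCNB2 (-0.295) and CENPN (-0.269) in xenografts against adherent cells, and AURKB (-0.0448), BUB3 (-0.216), CCNB2 (-0.175) and SMC4 (-0.404) in xenografts against spheres. Over all alternatives, 2636 of the other values kept their side of the threshold, 247 lost a call and 93 gained one. No scaling moved the median of all genes by over 0.1, but the split of all genes in xenografts against adherent cells, 2500 higher and 2829 lower, became 3015 and 2111 under quantile normalization and 1836 and 3252 under median centring.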

Other observations

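The genes that open the cell cycle were lower in spheres too. Of 15 regulators of the step from G1 to S 14 were lower than in adherent cells and 0 higher (median log2 change -0.97). Over all genes 16.3% were lower in spheres and 13.5% higher. CCNE2, cyclin E2, stood at 0.263 times adherent (log2 change -1.93, SE 0.21, limma adjusted p = 3.29e-05), and E2F7, a repressor of E2F targets, at 0.311 times. In xenografts 6 were lower, where 14.3% of all genes were, and CCND1, cyclin D1, was at 0.499 times. Set against spheres, 10 were higher in xenografts and 2 lower, beside 25.7% and 18.3% of all genes. They ran from E2F2 at 2.70 times to CDK6, a kinase of the cyclin D step, at 0.521 times.

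Of 10 measured CDK inhibitors and antiproliferative genes 5 were higher in spheres and 1 lower (median 0.41). Over all genes 13.5% were higher there and 16.3% lower. BTG1, an antiproliferative factor, was at 2.44 times and CCNG2, a cyclin of arrested cells, at 2.12 times, while CDKN2D, an inhibitor of CDK4 and CDK6, was at 0.707 times. In xenografts 3 were higher and 2 lower than in adherent cells, where 12.6% of all genes were higher and 14.3% lower. The count of 2 lower is near that share. CDKN1A, the inhibitor p21, was at 0.245 times adherent (log2 change -2.03, SE 0.11, limma adjusted p = 8.88e-07). It was at 0.156 times the sphere level, and 0 of the 10 were higher than in spheres by limma, where 25.7% of all genes were. These values are levels of RNA in bulk samples.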
